A study of Mus musculus with 18 samples.

Results

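The genes described here are 10 members of the T cell receptor complex and of the machinery next to it: Cd3e, Cd3g and Cd247, the coreceptors Cd4 and Cd8a, the kinases Lck and Zap70, and the surface proteins Cd2, Cd5 and Thy1. They were chosen by symbol, as genes of the T cell infiltrate of a Fas-mutant strain, and all 10 were present among the 15035 genes of the deposited files. Kidney cortex RNA was sequenced from 18 mice in 6 groups of 3. The healthy group was Mrl/Mpj wild type mice on vehicle. The other 15 mice were Mrl/lpr, in which the lpr mutation of Fas causes lymphoproliferation and lupus nephritis, and received vehicle, MMF, FK506, prednisone or a multi-target treatment. Mycophenolate mofetil (MMF) blocks purine synthesis in dividing lymphocytes, FK506 (tacrolimus) inhibits calcineurin downstream of the T cell receptor, and prednisone is a glucocorticoid. The labels used here give no dose, no duration and no age, and do not name the drugs of the multi-target treatment. Healthy and diseased mice differ in strain as well as in disease, and these cannot be told apart.

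A T cell recognises antigen through a receptor that has no signalling tail of its own, so the signal passes through the CD3 chains and the zeta chain (Cd247), whose cytoplasmic tails carry paired tyrosines. CD4 or CD8 brings the kinase LCK to the receptor, LCK phosphorylates those tyrosines, and ZAP-70 docks on them and phosphorylates the adaptors that carry the signal on. In lupus nephritis T cells gather around vessels and tubules, and the lpr strain is known for T cells that lack both CD4 and CD8.

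All values are the authors' normalised log2 expression values. A difference of 1 is a change of 2-fold. In bulk tissue, more T cells and more RNA per T cell cannot be told apart. Differences were tested with limma on all 15035 genes with Benjamini-Hochberg adjustment, and a gene was called at an adjusted p under 0.05. Each library is called a mouse below, by the number in its label. The labels used here do not state outright that each library came from a separate animal, so p-values measure only the spread between these libraries, which may be technical.

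The recovered reads of a library, summed over all genes, came to 28939844 to 41066953. These totals include genes whose values were not whole reads, so they are approximate. The 10 genes stood between 22.0 reads (Cd2) and 2504 (Cd8a, whose values were not whole reads) in their lowest and highest library. Fas was higher in the vehicle group (7.91 to 8.28) than in healthy mice (6.63 to 6.85), by 1.34 ± 0.15 (SE, limma adjusted p = 3.81e-05). A value for the whole gene does not resolve the lpr allele, so it is no check of the labels. Vehicle mouse 17 held adipose transcripts (Adipoq at 11.3 against 3.89 and 4.07 in the other vehicle mice) and the highest urothelium level (10.62, against 6.55 to 8.11 in the other 17 libraries), and FK506 mouse 12 adrenal transcripts (Cyp11a1 at 11.37 against 5.49 and 5.73). Vehicle mouse 36 and prednisone mouse 23 had the highest macrophage and dendritic cell levels of all libraries, with summed levels of 16.00 and 15.75 on the log2 scale.

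In the annotation of GRCm38 (GENCODE vM21), Cd3g (chr9:44969572-44980431) and Cd3e (chr9:44998740-45009627) are neighbours on the minus strand, and Thy1 lies on the same chromosome (chr9:44043384-44048579, plus strand). Cd4 (chr6:124864692-124888221, minus strand) and Cd8a (chr6:71373427-71379173, plus strand) share chromosome 6. Cd247 (chr1:165788681-165877277) and Zap70 (chr1:36761798-36782818) lie on chromosome 1, both on the plus strand. Lck (chr4:129548344-129573641), Cd2 (chr3:101275899-101287939) and Cd5 (chr19:10717116-10739002) lie on the minus strand. Exons of Cd3e overlap an antisense gene (Gm48719), exons of Cd247 overlap Pou2f1 on the opposite strand and Gm16565, and Lck overlaps a microRNA gene (Mir8119). Whether the authors' counting used strand is not given in the sources used here, so reads of Cd3e and Cd247 could include reads of those partners.

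RefSeq (GRCm38.p6) gave promoter windows, 250 bases before to 50 after a start, for 7 of the 10 genes, 10 windows in all, and none for Cd2, Cd4 and Thy1. Printed are those of Cd3e, a gene higher in diseased kidneys, of Lck, for which a window at its distal and one at its proximal start are listed, and of Cd8a, the coreceptor gene that was not called. Capitals mark GGAA or its reverse complement TTCC, the core that ETS factors bind.
Cd3e (chr9:45009562-45009861, minus strand): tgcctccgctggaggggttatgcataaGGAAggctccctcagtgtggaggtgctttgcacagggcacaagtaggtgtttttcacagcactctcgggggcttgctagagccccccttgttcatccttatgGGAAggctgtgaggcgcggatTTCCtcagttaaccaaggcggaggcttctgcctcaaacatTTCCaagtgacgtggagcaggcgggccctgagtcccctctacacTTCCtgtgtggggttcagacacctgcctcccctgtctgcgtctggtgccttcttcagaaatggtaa
Lck, distal start (chr4:129573592-129573891, minus strand): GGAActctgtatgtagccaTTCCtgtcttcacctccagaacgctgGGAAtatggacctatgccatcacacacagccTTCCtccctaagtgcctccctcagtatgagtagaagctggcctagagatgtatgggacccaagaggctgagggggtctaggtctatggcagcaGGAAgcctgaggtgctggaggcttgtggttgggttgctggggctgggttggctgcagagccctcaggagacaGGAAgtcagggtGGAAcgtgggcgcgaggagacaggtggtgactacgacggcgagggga
Lck, proximal start (chr4:129558323-129558622, minus strand): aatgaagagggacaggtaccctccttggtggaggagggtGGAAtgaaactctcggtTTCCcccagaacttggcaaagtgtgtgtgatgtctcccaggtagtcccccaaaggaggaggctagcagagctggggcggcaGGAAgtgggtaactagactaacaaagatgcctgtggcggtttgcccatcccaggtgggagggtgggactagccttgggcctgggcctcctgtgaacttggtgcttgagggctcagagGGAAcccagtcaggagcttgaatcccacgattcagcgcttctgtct
Cd8a (chr6:71373177-71373476, plus strand): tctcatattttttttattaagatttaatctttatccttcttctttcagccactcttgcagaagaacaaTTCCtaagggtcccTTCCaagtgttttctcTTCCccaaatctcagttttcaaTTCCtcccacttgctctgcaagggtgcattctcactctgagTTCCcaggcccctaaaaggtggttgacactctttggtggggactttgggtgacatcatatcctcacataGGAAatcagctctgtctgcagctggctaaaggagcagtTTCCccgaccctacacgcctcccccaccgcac
The core occurred at 5 places in the Cd3e window, at 7 and 4 in the Lck windows and at 7 in the Cd8a window. It stood in 9 of the 10 windows, and in 96.0% of all 32851 promoter windows, so its presence is no mark of these genes. The E-box CANNTG was in 10 of 10 windows (72.3% of all), TGTGGT, the core of RUNX sites, in 2 of 10 (16.8%), GATAA, the core of GATA sites, in 2 of 10 (25.4%), and GGAAAA, the core of NFAT sites, in 1 of 10 (23.4%). Both strands were searched, and every GGAAAA also contains a GGAA. A match is a description of the letters, not of a bound site.

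Diseased kidneys carried more RNA of 9 of the 10 genes. The vehicle group was compared with the healthy group to describe what the disease strain adds to the cortex, and all 9 called genes were higher, where 15.7% of all genes were called higher. The same 9 genes had no overlap between the 3 vehicle and the 3 healthy mice, against 32.6% of all genes not overlapping in that direction. The differences ran from 0.39 (Cd8a, not called) to 3.01 (Cd4), with a median of 1.85 over the 10 genes and 0.09 over all genes. Quantile normalisation moved the median of all genes to -0.07 and turned the calls over all genes from 2353 higher and 1016 lower to 1395 higher and 1795 lower. It left 8 of the 10 genes called, all higher, with a median of 1.48.

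**Figure D1:**
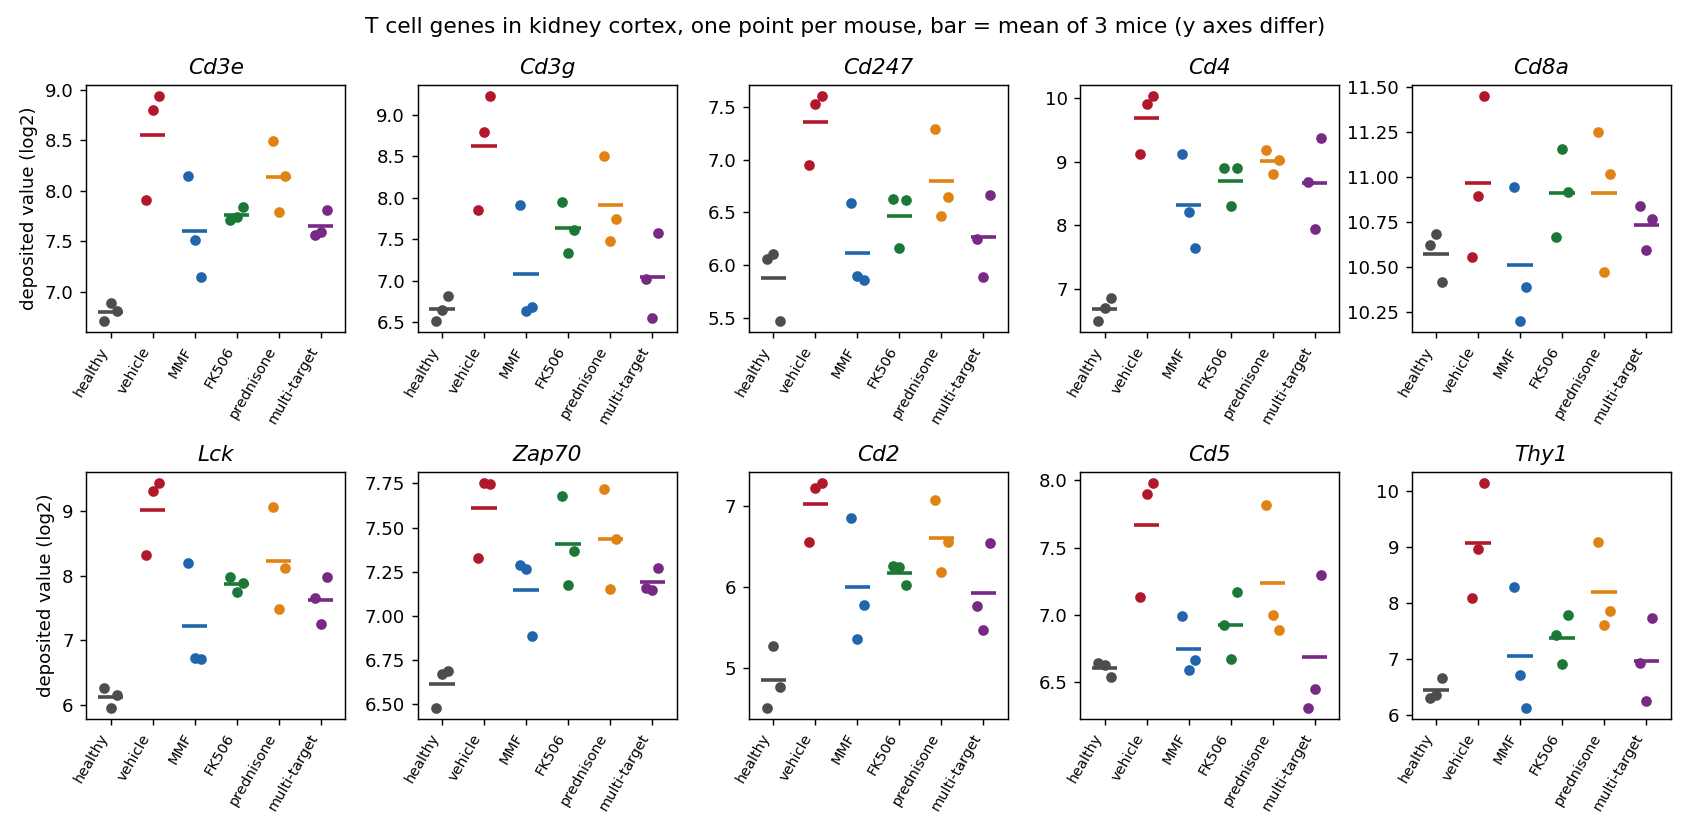
Deposited log2 values (y axis) of the 10 genes in the 6 groups (x axis), with 1 point per mouse and a bar at the group mean. The healthy mean is lowest and the vehicle mean highest in 9 panels, the MMF mean is lowest for Cd8a, and each y axis has its own range.

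Of the signalling chains, Cd3e was at 6.72, 6.89 and 6.81 in healthy mice 1, 2 and 3, and at 7.91, 8.80 and 8.94 in vehicle mice 7, 17 and 36. Every vehicle mouse lay above every healthy mouse, and the vehicle mice spread over 1.02 where the healthy mice spread over 0.17. The group means were 6.80 ± 0.09 and 8.55 ± 0.56 (SD, n = 3 each), a difference of 1.74 ± 0.27 (SE, limma adjusted p = 0.000477). Cd3g, which pairs with CD3 epsilon, went from 6.52, 6.65 and 6.81 to 7.85, 8.79 and 9.22, and was higher by 1.96 ± 0.40 (SE, limma adjusted p = 0.00350). Cd247, the zeta chain that carries most of the receptor's paired tyrosines, was at 6.06, 6.11 and 5.47 in healthy mice. In vehicle mice it was at 6.95, 7.53 and 7.60, higher by 1.48 ± 0.30 (SE, limma adjusted p = 0.00314). For all 3 chains vehicle mouse 7 was the lowest and mouse 36 the highest of the vehicle group, and none overlapped with healthy mice. Cd3d, the remaining CD3 chain, which was not among the 10 genes, was higher by 3.01 ± 0.55 (SE, limma adjusted p = 0.00167).

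The coreceptors parted. Cd4, the coreceptor of helper T cells, was at 6.50, 6.70 and 6.86 in healthy mice and at 9.13, 9.92 and 10.03 in vehicle mice. With a difference of 3.01 ± 0.37 (SE, limma adjusted p = 9.59e-05), an 8.05-fold change, it had the largest estimate of the 10 genes. Cd8a, the alpha chain of the coreceptor of cytotoxic T cells, was at 10.63, 10.68 and 10.42 in healthy mice and at 10.56, 10.90 and 11.45 in vehicle mice. Vehicle mouse 7 lay within the healthy range, and the difference of 0.39 ± 0.24 was not called (SE, limma adjusted p = 0.249). Its partner chain Cd8b1 was at 6.57, 6.27 and 6.69 against 6.77, 7.50 and 7.64, without overlap, and was called higher by 0.79 ± 0.26 (SE, limma adjusted p = 0.0422).

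Cd8a had the highest level of the 10 genes in both groups. Per kilobase of exon, on the linear deposited scale, the healthy median was 434.6 for Cd8a, against 27.6 for Cd3e, 25.8 for Cd4 and 34.1 for Zap70. In vehicle mice the medians per kilobase were 524 for Cd8a, 239.8 for Cd4, 216 for Lck and 109.0 for Cd3e. No other gene reached the Cd8a level of any mouse of its group. Levels per kilobase are approximate: lengths are those of all annotated exons joined, and the values of Cd8a, Lck and Zap70 were not whole reads in any library. The square of the Cd8a reads was whole in 14 of 14 libraries tested and the cube of the Lck reads in 6 of 6 (tolerance 0.05), as averages over several rows of one gene on a log scale would be. Zap70 did not show this, with its square whole in 2 of 18 libraries and its cube in 1 of 11, and how these values were formed is not given in the sources used here.

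**Figure D2:**
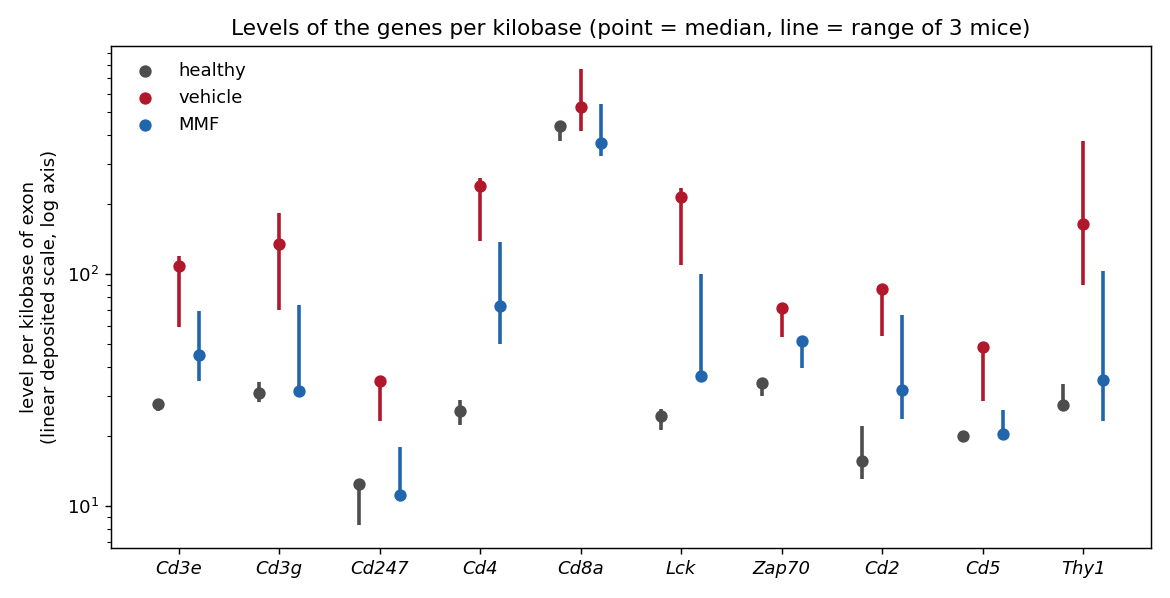
Level per kilobase of exon (y axis, log scale, linear deposited values divided by exon length) of the 10 genes (x axis) in healthy, vehicle and MMF mice, with a point at the median and a line over the range of 3 mice. Cd8a stands highest in each of these groups, at a median of 434.6 in healthy and 524 in vehicle mice.

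Set against Cd3e in the same library, a difference that does not depend on sequencing depth, the coreceptors stood on opposite sides. Cd4 minus Cd3e was between -0.22 and 0.04 in healthy mice and between 1.10 and 1.22 in vehicle mice, and all 15 Mrl/lpr mice (0.35 to 1.56) lay above the 3 Mrl/Mpj mice. Cd8a minus Cd3e was between 3.60 and 3.91 in healthy mice and between 2.10 and 2.65 in vehicle mice, and the 15 Mrl/lpr mice (2.10 to 3.42) all lay below the healthy ones. Cd8b1 minus Cd3e was between -0.61 and -0.12 in healthy mice and between -1.30 and -1.15 in vehicle mice, but the Mrl/lpr range of -1.74 to -0.44 overlapped with the healthy one. Cd8a stood far above its partner chain in every mouse, with Cd8a minus Cd8b1 at 3.73 to 4.41 in healthy and 3.40 to 4.62 in Mrl/lpr mice. How much of the Cd8a value came from T cells was not tested. These within-library differences were not tested. Some dendritic cells of mice also carry Cd4 or Cd8a, and markers of macrophages and dendritic cells were higher in vehicle mice in 12 of 14 cases, their summed level at 14.77 to 16.00 against 12.44 to 12.66 on the log2 scale. Their part in the Cd4 and Cd8a values was not tested.

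**Figure D3:**
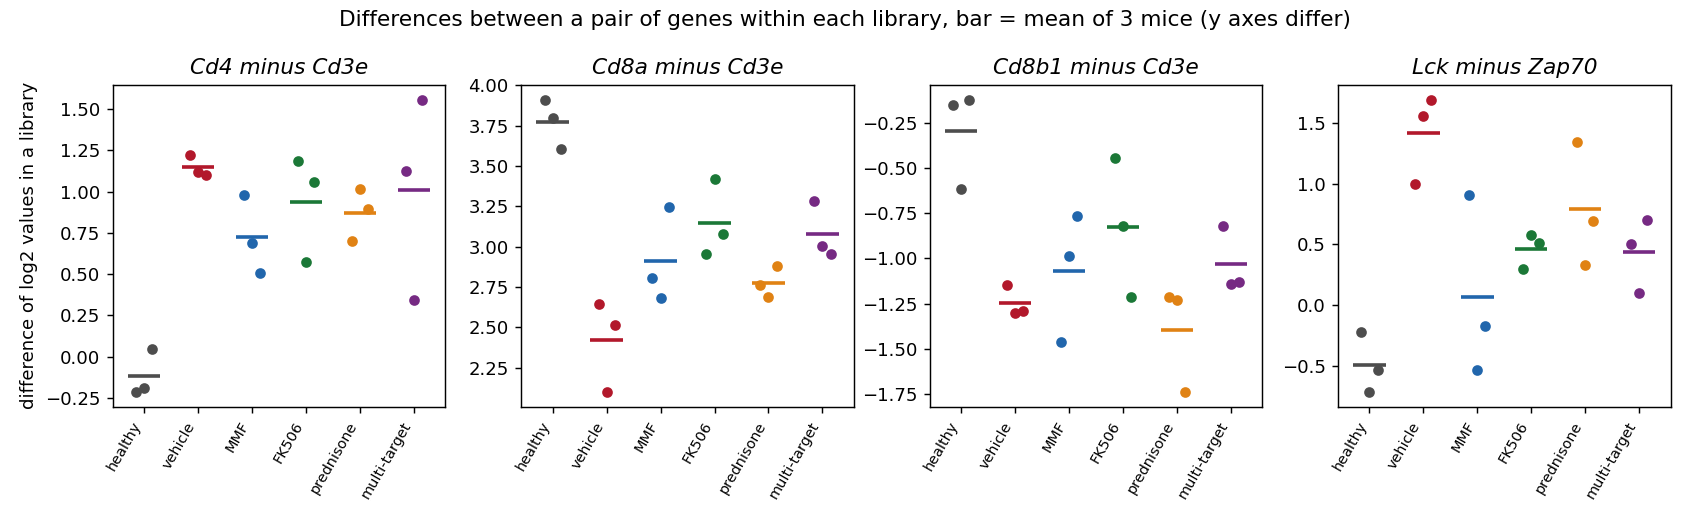
Difference of log2 values between a pair of genes in the same library (y axis) for Cd4 minus Cd3e, Cd8a minus Cd3e, Cd8b1 minus Cd3e and Lck minus Zap70 in the 6 groups (x axis), with a point per mouse and a bar at the mean. Cd4 minus Cd3e lies above the healthy mice in all 15 Mrl/lpr mice and Cd8a minus Cd3e below them.

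The kinases differed in size of change. Lck, which starts the signal, was at 6.26, 5.96 and 6.16 in healthy mice and at 8.32, 9.30 and 9.44 in vehicle mice. The groups lay over 2 units apart, and the difference was 2.89 ± 0.42 (SE, limma adjusted p = 0.000316), 7.43-fold. Zap70, which acts after it, was at 6.48, 6.67 and 6.69 against 7.33, 7.75 and 7.75, without overlap, a difference of 1.00 ± 0.18 (SE, limma adjusted p = 0.00186). Lck minus Zap70 in the same library was between -0.71 and -0.22 in healthy mice and between 1.00 and 1.69 in vehicle mice, so Lck was the lower of the pair in healthy and the higher in vehicle mice. The Mrl/lpr range of -0.53 to 1.69 overlapped with the healthy range through MMF mouse 14 alone, and this was not tested.

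Among the surface proteins, Cd2, an adhesion receptor of T and natural killer cells, was at 4.52, 5.27 and 4.77 in healthy mice and at 6.56, 7.23 and 7.29 in vehicle mice. It was higher by 2.17 ± 0.38 (SE, limma adjusted p = 0.00121). Cd5, which dampens receptor signalling, was at 6.64, 6.63 and 6.54 against 7.13, 7.90 and 7.98, higher by 1.07 ± 0.30 (SE, limma adjusted p = 0.0207). Its groups did not overlap, but its call ended under 8 of the alternatives, quantile normalisation (adjusted p = 0.0578) and leaving out vehicle mouse 36 (adjusted p = 0.101) among them. Thy1, a glycoprotein of mouse T cells that fibroblasts and neurons carry as well, was at 6.31, 6.36 and 6.66 against 8.08, 8.95 and 10.14, higher by 2.61 ± 0.58 (SE, limma adjusted p = 0.00621). It had the widest spread of the 10 genes in vehicle mice (SD 1.03). Its highest value stood in vehicle mouse 36, the library with the highest fibroblast and pericyte level (16.14, against 14.03 and 14.20 in vehicle mice 7 and 17). Of 8 fibroblast and pericyte markers 4 were called higher, with summed levels of 12.70 to 13.20 in healthy and 14.03 to 16.14 in vehicle mice, and their part in the Thy1 value was not tested.

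Other genes of the pathway, from lists that earlier results of these data may have shaped, were compared in the same fit. Of 10 listed receptor chains and coreceptor partners 4 were analysed, and all 4 were higher in vehicle mice, with a median of 2.10, Cd28, the main costimulatory receptor, by 2.47 ± 0.32 and Cd6, a relative of Cd5, by 1.74 ± 0.32 (SE). The constant regions of the receptor itself were not analysed here. Downstream, 15 of 19 measured genes were higher and none lower (median 0.84), with Vav1, an exchange factor, at 1.71 ± 0.25 and Sh2d2a, an LCK-binding adaptor, at 2.75 ± 0.43. Inhibitors and phosphatases were higher in 9 of 14 (median 0.67), with Sla, an adaptor that limits receptor levels, at 2.72 ± 0.34, Ptprc (CD45) at 2.45 ± 0.34 and Dok1 at 1.66 ± 0.29. Of 11 measured lineage and subset genes 6 were higher, with Ms4a4b at 3.49 ± 0.54 and the costimulatory receptor Cd27 at 2.0 ± 0.38. The estimates of 3 of the 11 lay below 0, with none called lower. The median of the 11 estimates was 1.09. Their summed level, in which the most abundant genes weigh most, did not rise. It was 12.20 to 12.52 in vehicle and 12.38 to 12.52 in healthy mice on the log2 scale.

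Other leukocytes moved with them, and their part in these values was not tested. Genes of all leukocytes were higher in 8 of 8, natural killer and cytotoxic markers in 4 of 4, plasma cell markers in 6 of 6 and B cell markers in 4 of 7. Of 3 measured genes of lymphoid organ stroma 2 were higher, the B cell attracting chemokine Cxcl13 by 3.98 ± 0.64 and Ltb, a lymphotoxin chain of lymphocytes, by 2.53 ± 0.45 (SE). The summed level of these 3 genes was 8.20 to 9.99 in vehicle and 6.03 to 6.37 in healthy mice. Relative to Ptprc, which all leukocytes carry, Cd3e was lower and Cd4 higher in vehicle than in healthy mice. Cd3e minus Ptprc was between -2.45 and -2.22 in healthy mice and between -3.20 and -2.88 in vehicle mice. Cd4 minus Ptprc was between -2.59 and -2.41 and between -1.98 and -1.78. Neither was tested. Markers of kidney cortex cells gave 1 call in each direction among 9, and vehicle mouse 36 had the lowest summed level of these (17.70, against 18.99 and 19.07 in mice 17 and 7). Without vehicle mouse 36 and prednisone mouse 23, an alternative chosen after the data were seen, 8 of the 10 genes were called, with a median of 1.6. Over all genes 1717 were called there, against 3369 with all libraries.

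The drug groups were each compared with the vehicle group. In all 4 the estimates of all 10 genes lay below 0, and Lck with MMF was the only call. The Cd8a estimates with FK506, prednisone and the multi-target treatment turned above 0 without vehicle mouse 36 and under some other alternatives. The 4 comparisons share the 3 vehicle mice, so a low or high vehicle mouse moves all of them.

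With MMF, Lck was at 8.20, 6.74 and 6.72 in MMF mice 1, 14 and 27, all below the lowest vehicle mouse at 8.32. It fell by 1.81 on the log2 scale (SE 0.42, limma adjusted p = 0.0486), a count of 1 of 10 where 1.45% of all genes were called lower. Without adjustment 9 of the 10 genes passed p under 0.05 (20.5% of all genes), all but Cd8a, and 5 did not overlap (12.4% of all genes). All 10 estimates were below 0, as were 56% of all genes, with a median of -1.13 against -0.05 over all genes. The Lck call ended under 10 alternatives, with adjusted p from 0.0504 to 0.385 in them, and limma voom on recovered reads called 0 of the 10. Array weights called 9 of the 10 lower, with 6753 calls over all genes in either direction where the main fit had 238.

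In MMF mice Cd3e was at 8.14, 7.52 and 7.14, so mouse 1 lay within the vehicle range and the other mice below it (estimate -0.95 ± 0.27 SE, limma adjusted p = 0.0621). Cd4 was at 9.12, 8.21 and 7.65, all below the lowest vehicle mouse at 9.13, mouse 1 just so (estimate -1.37 ± 0.37 SE, limma adjusted p = 0.0592). Thy1, at 8.28, 6.72 and 6.13, had the lowest estimate (-2.02 ± 0.58 SE, limma adjusted p = 0.0645). In these genes mouse 1 stood apart from mice 14 and 27, and for all 10 genes MMF mouse 1 was the highest of its group. Cd8a, at 10.95, 10.20 and 10.39, overlapped with vehicle mice (estimate -0.45 ± 0.24 SE, limma adjusted p = 0.211). Of the genes around the receptor, 2 of 19 downstream genes were called lower, among them Vav1 (-1.08 ± 0.25 SE), and 2 of 14 inhibitors and phosphatases, Ubash3b (-0.80 ± 0.15 SE) and Ptprc (-1.64 ± 0.34 SE). Of macrophage and dendritic cell markers 4 of 14 were called lower and of genes of all leukocytes 2 of 8, and their part was not tested.

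Which mice entered the comparison decided the count for MMF. Leaving out MMF mouse 1 gave 9 calls of 10 and leaving out vehicle mouse 7 gave 7, while leaving out vehicle mouse 17 or 36 or MMF mouse 14 or 27 gave 0. MMF mouse 1 also had the highest summed macrophage and dendritic cell level of its group (14.55, against 13.40 and 12.75), and vehicle mouse 7 the lowest of its own (14.77), and that part was not tested. Over all genes the calls numbered 5538 without MMF mouse 1, 1933 without vehicle mouse 7 and 0 without each of the others. The full comparison had 20 higher and 218 lower, so the change in calls was not confined to the 10 genes.

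**Figure D4:**
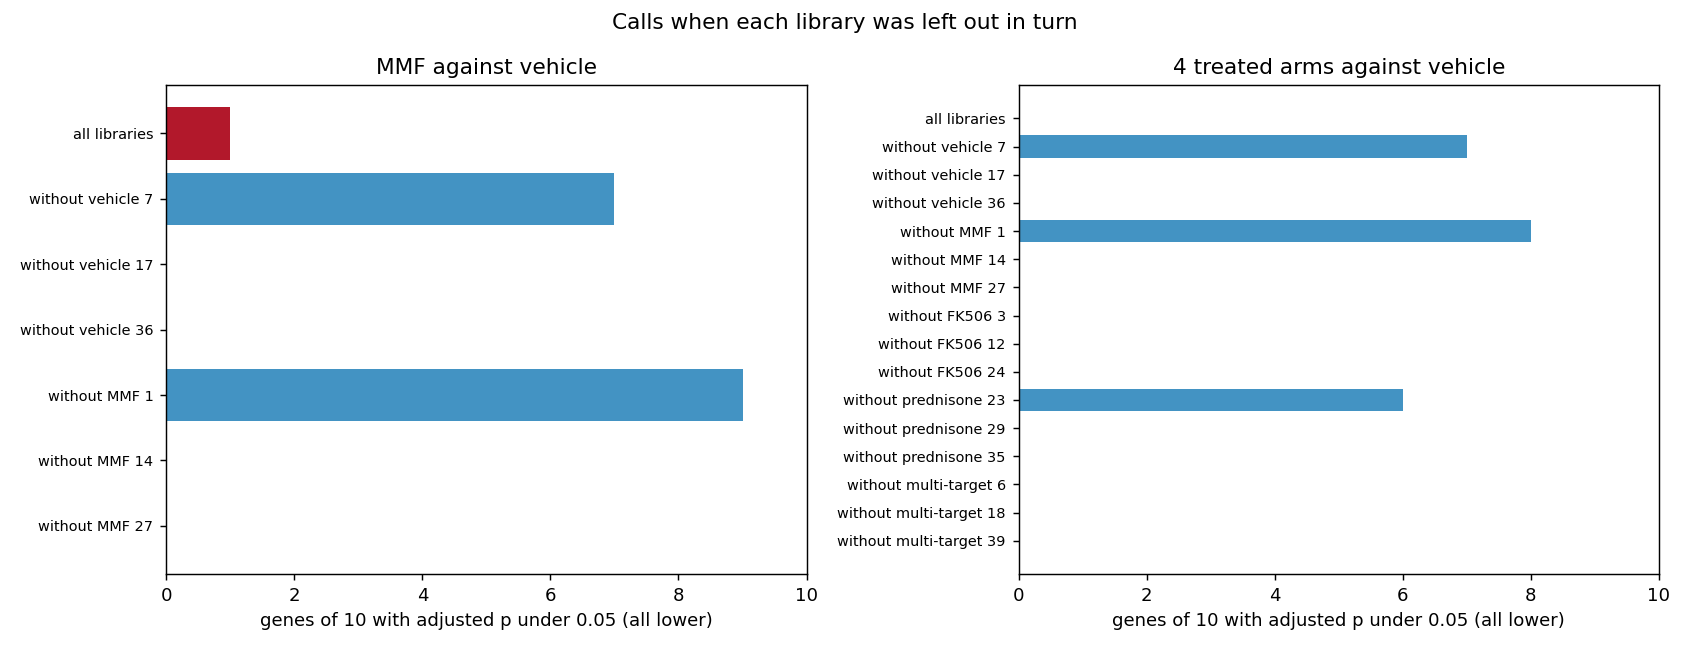
Number of the 10 genes called lower at an adjusted p under 0.05 (x axis) for MMF against vehicle (left) and for the 4 treated groups together against vehicle (right), with all libraries (red) and with each library of the comparison left out in turn (blue). Counts reach 9 without MMF mouse 1 on the left and 8 without it on the right, and most other bars are at 0.

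FK506 gave no call by limma (0% of all genes) nor by limma voom, with a smallest adjusted p of 0.171. Array weights, which weight each library by how much it varies, called 7 of the 10 lower. With MMF that setting raised the calls over all genes as well, and its share of all genes is not given for FK506. Without adjustment 8 of the 10 passed (11.9% of all genes), and 6 did not overlap with vehicle mice (12.2%). The estimates were below 0 for all 10 (52.2% of all genes), with a median of -0.87 against -0.01 over all genes. Markers of macrophages and dendritic cells were below 0 in 14 of 14 cases (median -1.21), genes of all leukocytes in 7 of 8 (median -1.13) and natural killer and cytotoxic markers in 4 of 4 (median -1.09), with none called, and their part was not tested. Lck was at 7.98, 7.75 and 7.88 in FK506 mice 3, 12 and 24, a tight group below every vehicle mouse (estimate -1.15 ± 0.42 SE). Cd3e was at 7.71, 7.74 and 7.84, also below every vehicle mouse and above every healthy mouse (estimate -0.78 ± 0.27 SE). Cd4 was at 8.90, 8.31 and 8.90 and Thy1 at 7.42, 6.91 and 7.77, with estimates of -0.99 ± 0.37 and -1.69 ± 0.58 (SE). Zap70 kept within the vehicle range in mouse 3 (7.68) and mouse 24 (7.37), and its estimate was -0.20 ± 0.18 (SE).

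Prednisone gave no call by limma (0% of all genes), by limma voom or with array weights, and none of the 10 passed without adjustment (0.951% of all genes). None was free of overlap with vehicle mice (1.3% of all genes). All 10 estimates were below 0 (44% of all genes), from -0.87 ± 0.58 (SE, Thy1) to -0.05 ± 0.24 (SE, Cd8a), with a median of -0.50 against 0.03 over all genes. Prednisone mouse 23 lay among the vehicle mice for each gene, for instance at 9.06 for Lck and 8.49 for Cd3e. Mouse 29 was below the vehicle mice for both, at 7.49 for Lck and 7.79 for Cd3e. Mouse 35 was below them for Lck (8.13) and within their range for Cd3e (8.14). Mouse 23 also had the highest macrophage and dendritic cell level of its group (15.75, against 14.14 and 14.25), and that part was not tested.

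The multi-target treatment gave no call by limma (0% of all genes) nor by limma voom, with a smallest adjusted p of 0.166. Array weights called 9 of the 10 lower here, and the share of all genes called with them is not given. Without adjustment 9 of the 10 passed (9.62% of all genes), all but Cd8a, and 7 did not overlap with vehicle mice (9.54%). All 10 estimates were below 0 (53.5% of all genes), with a median of -1.06 against -0.02 over all genes. Markers of macrophages and dendritic cells were below 0 in 14 of 14 cases (median -1.38) and genes of all leukocytes in 8 of 8 (median -1.54), with none called, and their part was not tested. Cd3g was at 7.01, 6.54 and 7.58 in multi-target mice 6, 18 and 39, all below the vehicle mice, with mouse 18 within the healthy range (estimate -1.57 ± 0.40 SE). Lck was at 7.66, 7.25 and 7.97, below the vehicle and above the healthy mice (estimate -1.39 ± 0.42 SE). Cd4 was at 8.68, 7.94 and 9.37, where mouse 39 reached the vehicle range (estimate -1.03 ± 0.37 SE), and Thy1 was at 6.92, 6.25 and 7.73 (estimate -2.09 ± 0.58 SE).

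The 4 treated groups pooled gave no call among the 10 genes by limma (0% of all genes) nor by limma voom, with a smallest adjusted p of 0.0872 for Cd247. Array weights called 8 of the 10 lower, and the share of all genes called with them is not given. Without adjustment 9 passed (14.6% of all genes), none was free of overlap (0.333%), and all 10 estimates were below 0 (52.3%), with a median of -0.90. The pooled count depended on single mice: it was 8 without MMF mouse 1, 7 without vehicle mouse 7 and 6 without prednisone mouse 23, and 0 without any other library of the comparison. For MMF against vehicle, leaving out MMF mouse 1 or vehicle mouse 7 raised the calls over all genes as well. The shares of all genes called are not given for the pooled comparison with a mouse left out. The Cd8a estimates against vehicle were -0.05 with FK506, -0.05 with prednisone, -0.23 with the multi-target treatment and -0.20 pooled, and each turned above 0 without vehicle mouse 36. The FK506 estimate also did so without FK506 mouse 3 (0.07), and the prednisone estimate without prednisone mouse 29 (0.17).

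**Figure D5:**
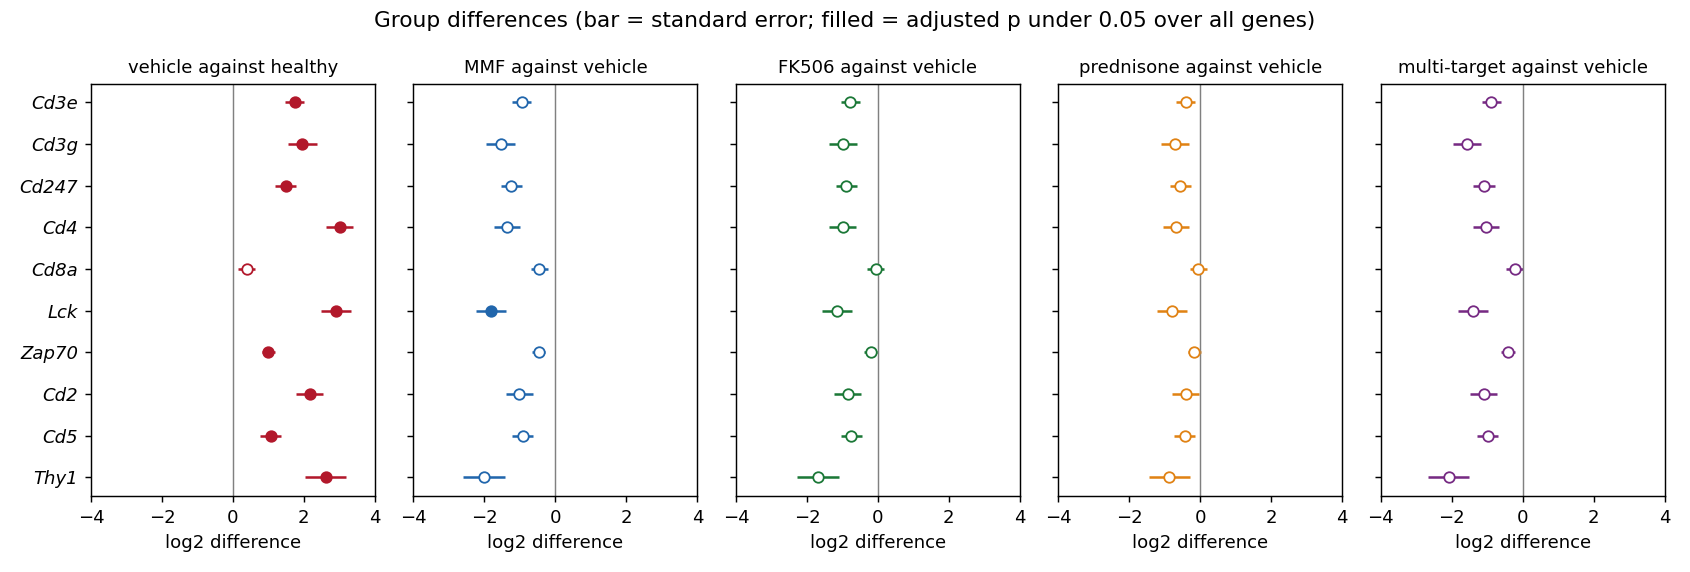
Log2 differences (x axis) of the 10 genes (y axis) for vehicle against healthy and for each drug group against vehicle, from limma, with a bar of 1 standard error on each side. Filled points mark an adjusted p under 0.05: 9 genes in the disease comparison, Lck alone with MMF and none in the other panels.

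The treated groups were also compared with healthy mice to see which genes were still higher. With MMF 1 of 10 was called higher, Cd4 at 1.64 ± 0.37 (SE, limma adjusted p = 0.0142), where 9.56% of all genes were. Without healthy mouse 1 that count was 0, and without MMF mouse 27 it was 2. With FK506 it was 5 of 10 (5.73% of all genes): Cd3e, Cd4, Lck, Zap70 and Cd2, with Cd4 at 2.02 ± 0.37. It was 1 without healthy mouse 1, 2 or 3 or FK506 mouse 3, 2 without FK506 mouse 12 and 3 without FK506 mouse 24. With prednisone it was 7 of 10 (13.4% of all genes), all but Cd8a, Cd5 and Thy1, with Cd4 at 2.32 ± 0.37, and 4 without prednisone mouse 23. With the multi-target treatment it was 2 of 10 (5.33% of all genes), Cd4 at 1.98 ± 0.37 and Lck at 1.5 ± 0.42, and 1 whichever mouse was left out. Cd4 was thus called higher than in healthy mice in all 4 treated groups with all libraries in the fit. The shares of all genes called are not given for the counts above with a mouse left out. In vehicle against healthy, leaving out healthy mouse 1 lowered the calls over all genes from 3369 to 1744. Under quantile normalisation the share of higher genes among all calls moved from 60% to 47% with MMF, from 78.8% to 53.4% with FK506, from 80.3% to 46.7% with prednisone and from 76.4% to 50.5% with the multi-target treatment.

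Expressed as a share of the vehicle-minus-healthy difference that was still there in the group means, the 9 genes without Cd8a had medians of 37.6% with MMF, 48.8% with the multi-target treatment, 55.1% with FK506 and 72.5% with prednisone. The ranges over the 9 genes were 13.7% to 54.6%, 7.8% to 65.8%, 30% to 79.8% and 59.1% to 82.5%. For Cd4 the share was 54.6% with MMF and 77.2% with prednisone, and for Cd247 it was 16.0% and 62.3%. Without MMF mouse 1 the MMF median was 20.7%, with a range of -0.7% to 46.3%, and without multi-target mouse 39 the multi-target median was 35.4%, with a range of -20.8% to 54.3%. Without prednisone mouse 23 the prednisone median was 58.1%, with a range of 31.9% to 74.3%. With each library left out in turn the FK506 median was between 46.6% and 62.0%. All shares use the same vehicle and healthy mice, so they are not independent of each other.

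The order of the 6 group means was close to constant from gene to gene. Vehicle was highest, prednisone next and FK506 after it for all 10 genes, and healthy was lowest for 9. MMF and the multi-target group took the places between, in either order. Cd8a was the exception, with MMF (10.51 ± 0.39) below healthy (10.58 ± 0.14, SD, n = 3 each). Neighbours in that order mostly overlapped. The only neighbours without overlap were MMF above healthy for Cd3e, Cd4, Lck and Zap70, and the multi-target group above healthy for Cd2.

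No gene of the 10 was called by limma in any of the 6 comparisons between treated groups, nor in that of the multi-target group with the mean of the 3 single-drug groups, where 0% of all genes were called lower in each, and limma voom called 0 of the 10 in each. Array weights called 5 genes lower with MMF than with prednisone, 3 lower with MMF than with FK506, 3 higher with the multi-target treatment than with MMF and 1 lower with it than with the mean of the single drugs. The shares of all genes called with array weights are not given for these comparisons. Without adjustment, Cd247 and Lck were lower with MMF than with prednisone (2 of 10, against 12.3% of all genes lower), and Cd3g was lower with the multi-target treatment than with prednisone (1 of 10, against 3.01%). None of the 10 passed in the multi-target group against MMF (2.12% of all genes lower), against FK506 (0.239%) or against the mean of the single drugs (0.605%), in MMF against FK506 (4.5%) or in FK506 against prednisone (2.37%). Without MMF mouse 1, 3 of the 10 were called lower with MMF than with prednisone, and the share of all genes called without that mouse is not given. Misses in limma's test do not show that the treatments act alike, since the intervals are wide. The multi-target group differed from MMF by 0.41 for Lck (95% interval -0.48 to 1.31), by -0.03 for Cd3g (-0.88 to 0.82) and by -0.07 for Thy1 (-1.32 to 1.17). The last 2 turned above 0 without MMF mouse 1, without multi-target mouse 18 and with array weights.

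Single mice ranked alike across the genes. Vehicle mouse 36 had the highest value of all 18 libraries for 9 of the 10 genes, and vehicle mouse 17 for Zap70, where mouse 36 was the highest of all libraries for 25.9% of all genes. Vehicle mouse 7 was the lowest of its group for all 10 (41.9% of all genes). MMF mouse 1 was the highest of its group for all 10 (41.7% of all genes), prednisone mouse 23 for all 10 (38.0%), and multi-target mouse 39 for 9 (41.4%). Of the 30 values per treated group (10 genes in 3 mice), 25 lay below the lowest vehicle mouse with MMF, 25 with the multi-target treatment, 23 with FK506 and 16 with prednisone. Each set of 30 values rests on only 3 mice, so the values in it are not independent. Over all genes the shares of values below the lowest vehicle mouse were 37.3% with MMF, 29.2% with the multi-target treatment, 30.4% with FK506 and 18.2% with prednisone. At or below the highest healthy mouse lay 8 of the 30 with MMF, 6 with the multi-target treatment, and 1 each with FK506 and prednisone, where over all genes the shares were 52.7%, 50.7%, 50.1% and 45.4%.

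Genes with the most similar pattern were those with the smallest root-mean-square difference of centred log2 values over the 18 libraries. For Cd3e these were Tcirg1 (0.11), Psme1 (0.12) and Psme2b (0.15). For Cd4 they were the antigen presentation genes H2-Q5 (0.28), Tap2 (0.29) and B2m (0.29), and for Lck they were Cd3d (0.23), Unc93b1 (0.25) and Rhoh (0.26). For Thy1 they were Ptpn7 (0.34), Hpse (0.35) and Itgax (0.36), and for Cd8a Pde6d (0.15), Hsd11b2 (0.16) and Kcne1 (0.16). Cd8a varied by 0.31 around its own mean, and Zap70, the nearest to it of the other 9, ranked 4023 of 15034 genes. Lck and Cd4 were each other's nearest among the 10, at 0.34. The 18 libraries share 6 group means, and likeness over them says nothing of shared function.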

How the data were processed

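Kidney cortex RNA was made into libraries with a TruSeq kit, per the labels' protocols. The deposited files hold normalised log2 values per gene symbol for 15035 genes, made by the authors; limma and the mm10 build are named in the submitters' processing notes, while the sources used here give no aligner, counting tool or strand setting. Of the deposited rows, 23 carried date-like names, as gene symbols altered by spreadsheet software do. In each library the linear values of 75.0% to 75.4% of genes were whole multiples of 1 common factor (tolerance 0.001), so reads were recovered with a median total of 35584728. That total also sums the values of the other genes, divided by the same factor. Of the 10 genes 7 were whole in all 18 libraries, and Cd8a, Lck and Zap70 in none.

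The files' log2 values were fitted with limma 3.58.1 in R 4.3.3, with 6 group means over 18 libraries, 12 residual degrees of freedom, a prior variance that depends on the mean, and Benjamini-Hochberg adjustment over 15035 genes in each of 17 comparisons. The fit was tested on simulated data. Tables were built with Python 3.11.15, pandas 2.3.3 and numpy 2.4.6. Alternatives were quantile normalisation, leaving out the lowest 25% of genes, a pseudocount of 1, 1 prior variance, only the groups compared, array weights, voom on recovered reads, leaving out the libraries with other-tissue transcripts and leaving out each library. All 10 genes are named; of other lists at most 3 genes with the smallest p per comparison, and any gene the 10 are compared with; of similar genes the 3 nearest. The members and lists were chosen with earlier results of these data known. Gene positions come from GENCODE vM21 and promoters from RefSeq. Protein sequences were not used here.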

Additional observations from a re-analysis of the deposited data

How the results depend on the processing

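No paired analysis was run, because the labels used here state no pairing of mice between groups. With 3 libraries a group and as few as 22.0 reads for Cd2, small differences could not be resolved. Of 10 genes, 9 were called in vehicle against healthy and 8 to 9 with each library left out, but 1 without the lowest 25% of genes, a filter that kept 2 of the 10, Cd4 and Cd8a. Calls over all genes in that comparison were 3369, with 1490 to 4023 when each library was left out and 2226 under that filter. For MMF against vehicle the count of 1 became 0 under quantile normalisation, the low filter, 1 prior variance, only the groups compared, voom, leaving out the other-tissue libraries and leaving out vehicle 36 with prednisone 23 (chosen after seeing the data), 2 with a pseudocount of 1, 9 with array weights, and 0 to 9 with each library left out. Array weights, which down-weight libraries that vary more and whose estimation did not fully converge, gave 7 for FK506, 9 for multi-target and 8 for the 4 arms against vehicle. They gave 3 for multi-target against MMF, 3 for MMF against FK506, 5 for MMF against prednisone, 1 for multi-target against the single drugs, and, against healthy, 5 for MMF and 10 for multi-target (9 higher, 1 lower). Over all genes array weights called 6753 for MMF against vehicle, where the main fit called 238. Such counts over all genes are not given here for the other comparisons. With each library left out, counts ran from 0 to 8 for the 4 arms, 0 to 3 for MMF against prednisone, and against healthy 0 to 2 for MMF, 1 to 3 for FK506, 4 to 8 for prednisone and 1 for multi-target. Against healthy, MMF gave 3 with 1 prior variance. FK506 gave 3 with quantile normalisation, 1 with the low filter, 2 with voom and 1 without other-tissue libraries. Prednisone gave 4 with quantile normalisation and 1 with the low filter, and multi-target gave 1 with quantile normalisation, the low filter or voom and 4 with only the groups compared. The shares of all genes called are not given beside these counts of treated groups against healthy.

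Single-gene estimates were recomputed for the 10 genes in the 10 comparisons with vehicle or healthy, and for Lck, Cd3g and Thy1 in multi-target against MMF. Cd8a changed sign most often. Against vehicle they became, with array weights, 0.2465 for FK506, 0.0381 for prednisone and 0.0037 for multi-target. Without vehicle 36 and prednisone 23 they became 0.188, 0.0214 and 0.0085, and 0.0011 for the 4 arms. With each library left out they ran from -0.2584 to 0.188 for FK506, from -0.2581 to 0.1883 for prednisone, from -0.4379 to 0.0085 for multi-target and from -0.4036 to 0.0428 for the 4 arms. Against healthy, leaving out each library, Cd8a with MMF ran from -0.2801 to 0.0928, Thy1 with MMF from -0.0187 to 1.0552 and Cd5 with multi-target from -0.2216 to 0.2716, and Cd5 with multi-target became -0.0762 with quantile normalisation and -0.2724 with array weights. For multi-target against MMF, Cd3g became 0.3021 and Thy1 0.4622 with array weights, and with each library left out they ran from -0.2972 to 0.3864 and from -0.5299 to 0.5439. The causes were not tested. Of these single-gene estimates under the alternatives, 1294 kept direction and side of the threshold, 76 lost a call, 92 gained one and 24 changed sign.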
